A study of Mus musculus with 12 samples.

Results

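The transcripts described here encode the checkpoint receptor PD-1 (Pdcd1), its ligands PD-L1 (Cd274) and PD-L2 (Pdcd1lg2), and 6 further inhibitory receptors of lymphocytes, CTLA-4 (Ctla4), LAG-3 (Lag3), TIM-3 (Havcr2), TIGIT (Tigit), BTLA (Btla) and CD160 (Cd160). They are the 9 of 49585 genes in the count matrix that carry these symbols, and all 9 were among the 18556 genes with enough counts to be tested. Whole-lung RNA of C57BL/6J mice carrying a subcutaneous MO4 melanoma was sequenced in 12 libraries, 3 in each of 4 groups. In the combination group, mice of 22 months received anti-PD-1 and, simultaneously, anti-IL-21R, an antibody that targets the receptor of the cytokine IL-21. The aged anti-PD-1 group (22 months) received anti-PD-1, and the aged control group (22 months) received an isotype-matched rat control antibody. The young anti-PD-1 group (2 months) received anti-PD-1. Antibodies were injected intraperitoneally, and the labels give days 3, 7 and 11 after tumour inoculation for anti-PD-1 and control antibody. Every group carried the tumour, all young libraries came from treated mice, and the labels do not say whether each library came from its own mouse. The p-values therefore measure only the spread between these libraries.

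Checkpoint receptors restrain lymphocytes after activation. PD-1 appears on T cells that have met antigen and recruits phosphatases that dampen T cell receptor signalling when PD-L1 or PD-L2 is bound. CTLA-4 competes with CD28 for CD80 and CD86 and is abundant on regulatory T cells, LAG-3 binds MHC class II, TIGIT competes with CD226 for nectin family ligands, and BTLA and CD160 bind HVEM. TIM-3 and PD-L1 are also made by macrophages and other myeloid cells, and BTLA is abundant on resting B cells. Chronic antigen exposure raises several of these receptors on exhausted T cells, and PD-1 is also high on follicular helper T cells. The antibody given here binds the PD-1 protein, and only RNA was measured.

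Counted reads per library ran from 16021877 to 22058620. The lung surfactant gene Sftpc stood at 9465 to 17990 CPM (each count as a share of the library total, scaled between libraries by TMM), as the tissue label would have it. Of the melanocyte genes, Tyr had no counts in 10 of 12 libraries and Pmel stood at 2.14 to 5.10 CPM. Counts of libraries within a group differed beyond counting noise, with a chi-square per degree of freedom between 9.61 and 48.1. Library 3 of the aged anti-PD-1 group had the highest value of all 12 libraries for 5 of the 9 checkpoint genes and was among the top 3 for 7 of them. Library 1 of the aged control group had the lowest value for 3 genes.

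The 9 genes lie on 6 chromosomes (mm10, positions as deposited). Pdcd1 (ENSMUSG00000026285, chromosome 1, 94038305 to 94052553, minus strand) and Ctla4 (ENSMUSG00000026011, chromosome 1, 60887000 to 60915832, plus strand) share a chromosome but not a neighbourhood, with 720 genes between them. Cd274 (ENSMUSG00000016496, chromosome 19, 29367455 to 29388095, plus strand) and Pdcd1lg2 (ENSMUSG00000016498, chromosome 19, 29410919 to 29471157, plus strand) are adjacent, 22823 bases apart with 0 genes between. Tigit (ENSMUSG00000071552, 43648861 to 43664184, minus strand) and Btla (ENSMUSG00000052013, 45224315 to 45252895, plus strand) lie on chromosome 16, 1560130 bases apart. Lag3 (ENSMUSG00000030124, chromosome 6, 124904361 to 124911705, minus strand), Havcr2 (ENSMUSG00000020399, chromosome 11, 46454935 to 46481255, plus strand) and Cd160 (ENSMUSG00000038304, chromosome 3, 96798763 to 96829351, minus strand) have no partner nearby. The Cd160 span overlaps Pdzk1 on the opposite strand, and the strand setting of the counting is not given in the sources used here, so reads of the pair cannot be told apart with certainty. The Ctla4 span holds a processed pseudogene, Rpl18-ps1, on the same strand, which had 0.402 to 1.75 CPM.

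Start regions of 3 of these genes are shown because their transcripts took different courses: Pdcd1 and Ctla4 were called in both comparisons of aged anti-PD-1 lungs below, and Cd274, the most abundant of the 9 per base, in none. Each runs 5′ to 3′ on the gene's strand from 250 bases before the RefSeq start to 50 after it (GRCm38.p6, the same assembly as mm10). Capitals mark matches, on either strand, to the letters GAAANNGAA (a core of interferon-regulatory factor elements) or TGGAAA (a core of NFAT elements). The RefSeq start of Ctla4 lies inside the gene span deposited with the counts.
Pdcd1 promoter, chr1:94052504-94052803, minus strand: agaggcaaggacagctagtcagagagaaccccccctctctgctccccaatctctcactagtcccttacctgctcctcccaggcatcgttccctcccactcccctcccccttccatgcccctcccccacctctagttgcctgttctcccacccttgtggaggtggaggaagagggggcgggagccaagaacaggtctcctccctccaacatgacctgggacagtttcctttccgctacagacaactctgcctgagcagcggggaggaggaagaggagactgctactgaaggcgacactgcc
Ctla4 promoter, chr1:60908775-60909074, plus strand: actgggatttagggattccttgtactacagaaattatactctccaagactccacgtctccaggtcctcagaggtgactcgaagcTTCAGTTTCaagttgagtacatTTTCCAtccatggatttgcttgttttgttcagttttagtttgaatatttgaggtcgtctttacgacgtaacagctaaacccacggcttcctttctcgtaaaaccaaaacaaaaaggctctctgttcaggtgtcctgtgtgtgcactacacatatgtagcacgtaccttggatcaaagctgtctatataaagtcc
Cd274 promoter, chr19:29367188-29367487, plus strand: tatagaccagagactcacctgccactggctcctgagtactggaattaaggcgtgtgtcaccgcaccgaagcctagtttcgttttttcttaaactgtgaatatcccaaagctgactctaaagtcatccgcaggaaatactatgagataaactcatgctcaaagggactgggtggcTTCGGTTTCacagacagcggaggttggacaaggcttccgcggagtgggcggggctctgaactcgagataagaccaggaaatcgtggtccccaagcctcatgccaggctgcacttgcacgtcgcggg
The Ctla4 window held 1 match to each of these motifs, the Cd274 window 1 to GAAANNGAA, and the Pdcd1 window none. GAAANNGAA occurs in 8.56% of 32851 RefSeq promoter windows of this length and TGGAAA in 21.4%. The motifs TGANTCA (AP-1, 7.81% of windows) and TTCNNNGAA (a STAT element, 8.30%) were absent from all 3 windows. A match is only a description of the sequence, as is its absence. RefSeq entries were matched for the other genes except Lag3. Their windows held GAAANNGAA for Btla, TGANTCA for Havcr2 and TTCNNNGAA in 1 of the 2 windows of Cd160, and none of the 4 motifs for Pdcd1lg2 or Tigit.

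Per kilobase of exon, the 9 genes differed widely in level, and Cd274 led in every group. For Btla, Tigit and Pdcd1lg2 the deposited coordinates differed from the annotation that gave the exon length, so their places in the order are less certain. In aged anti-PD-1 lungs the mean was 20.8 CPM per kb for Cd274, 13.0 for Btla, 9.97 for Ctla4, 9.69 for Havcr2, 5.75 for Lag3, 5.71 for Tigit, 2.82 for Pdcd1, 0.988 for Pdcd1lg2 and 0.582 for Cd160. Only Cd274 from Btla, and Pdcd1 from Pdcd1lg2, were separated by ranges that did not overlap among neighbours in this order. The order in combination lungs was Cd274, Btla, Havcr2, Ctla4, Tigit, Lag3, Pdcd1, Pdcd1lg2 and Cd160, and the last 3 lay between 1.18 and 0.513 CPM per kb. Aged control and young anti-PD-1 lungs also had Pdcd1, Pdcd1lg2 and Cd160 as their lowest 3, with means of 0.507 to 0.781 CPM per kb in aged control and 0.394 to 0.571 in young anti-PD-1 lungs. Pdcd1 thus rests on few reads, with 108 in the 3 combination libraries together, 338 in aged anti-PD-1, 83 in aged control and 69 in young anti-PD-1.

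**Figure D1:**
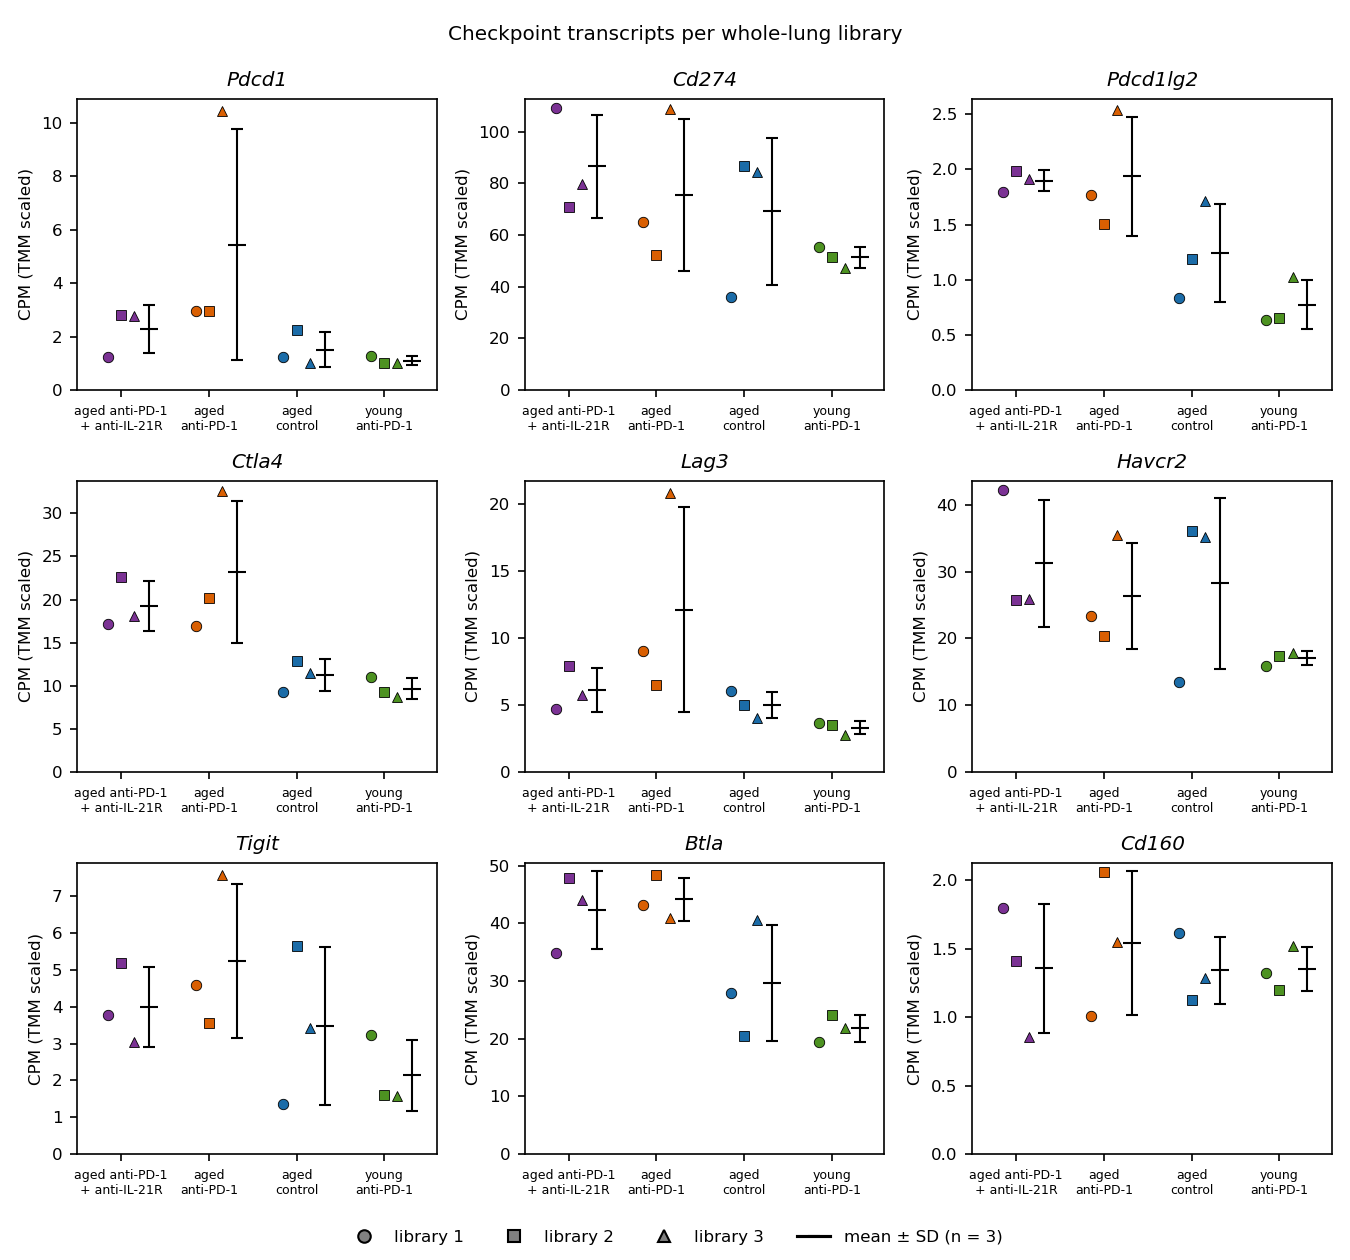
Level of each checkpoint gene in each of the 12 libraries (CPM, TMM scaled, linear axis from 0 in each panel), with a marker shape for each library and bars for the mean ± SD of the 3 libraries in a group. Library 3 of the aged anti-PD-1 group stands high for Pdcd1 (10.4 CPM), Lag3 (20.9 CPM) and Ctla4 (32.6 CPM), and the Ctla4 values of the combination and aged anti-PD-1 groups lie above all those of the aged control and young anti-PD-1 groups.

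Pdcd1 stood at 1.24, 2.81 and 2.77 CPM in combination lungs, 2.94, 2.97 and 10.4 CPM in aged anti-PD-1 lungs, 1.25, 2.26 and 1.02 CPM in aged control lungs, and 1.28, 1.00 and 1.03 CPM in young anti-PD-1 lungs. All 3 aged anti-PD-1 libraries were above the other 9, library 3 by far, and the values of the other 3 groups overlapped. For the ligand gene Cd274, the values were 109, 70.9 and 79.7 CPM in combination lungs, 65.1, 52.4 and 109 CPM in aged anti-PD-1 lungs, 36.1, 86.8 and 84.3 CPM in aged control lungs, and 55.4, 51.6 and 47.2 CPM in young anti-PD-1 lungs. The 9 aged libraries spread over a 3-fold range that took in the young values, so neighbouring groups did not separate. Pdcd1lg2, the second ligand, stood at 1.799, 1.98 and 1.91 CPM in combination lungs, 1.76, 1.51 and 2.54 CPM in aged anti-PD-1 lungs, 0.831, 1.19 and 1.71 CPM in aged control lungs, and 0.639, 0.650 and 1.03 CPM in young anti-PD-1 lungs. Young libraries were below all combination and aged anti-PD-1 libraries, and aged control libraries overlapped the young ones.

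Ctla4 fell into a higher and a lower pair of groups. It stood at 17.2, 22.6 and 18.1 CPM in combination lungs and 17.0, 20.2 and 32.6 CPM in aged anti-PD-1 lungs, against 9.25, 12.9 and 11.5 CPM in aged control lungs and 11.0, 9.31 and 8.72 CPM in young anti-PD-1 lungs. The lowest of the first 6 values lay above the highest of the last 6. Lag3 had 4.72, 7.93 and 5.74 CPM in combination lungs, 9.07, 6.49 and 20.9 CPM in aged anti-PD-1 lungs, 6.03, 5.02 and 4.06 CPM in aged control lungs, and 3.70, 3.50 and 2.75 CPM in young anti-PD-1 lungs. Aged anti-PD-1 libraries overlapped the combination ones but not the aged control or young ones.

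Havcr2, which marks myeloid cells as well as exhausted T cells, had 42.2, 25.7 and 25.9 CPM in combination lungs, 23.4, 20.3 and 35.4 CPM in aged anti-PD-1 lungs, 13.5, 36.1 and 35.1 CPM in aged control lungs, and 15.9, 17.4 and 17.8 CPM in young anti-PD-1 lungs. The 3 aged groups overlapped one another, and library 1 of the aged control group was the lowest of all 12, as it was for Cd274. Tigit had 3.77, 5.18 and 3.03 CPM in combination lungs, 4.58, 3.57 and 7.58 CPM in aged anti-PD-1 lungs, 1.35, 5.64 and 3.42 CPM in aged control lungs, and 3.24, 1.601 and 1.57 CPM in young anti-PD-1 lungs. Its spread within the aged control group was as wide as the differences between the group means.

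Of the HVEM receptors, Btla stood at 34.9, 47.9 and 44.1 CPM in combination lungs, 43.1, 48.3 and 41.0 CPM in aged anti-PD-1 lungs, 28.0, 20.5 and 40.5 CPM in aged control lungs, and 19.4, 24.1 and 21.9 CPM in young anti-PD-1 lungs. It was the only member called below for which library 3 of the aged anti-PD-1 group was the lowest of its group. Cd160 had 1.799, 1.41 and 0.857 CPM in combination lungs, 1.01, 2.06 and 1.55 CPM in aged anti-PD-1 lungs, 1.61, 1.13 and 1.28 CPM in aged control lungs, and 1.32, 1.20 and 1.52 CPM in young anti-PD-1 lungs. Its 4 group means lay between 1.34 and 1.54 CPM and all ranges overlapped.

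Aged anti-PD-1 lungs were first set against young anti-PD-1 lungs, the comparison that asks how age bears on the lung under the same treatment. Pdcd1, Lag3, Pdcd1lg2, Ctla4 and Btla rose, by 2.03-fold to 4.89-fold, and Cd274, Havcr2, Tigit and Cd160 did not pass the test. So 5 of 9 genes were called higher (adjusted p under 0.05) and 0 lower, where 8.09% of all genes tested were higher and 7.16% lower. For 7 of 9 the groups did not overlap, against 39.6% of all genes, and the median log2 fold change was 1.26, against -0.01 over all genes. Fewer cells of a type and less RNA per cell cannot be told apart in whole-lung RNA, here or below. Fold changes are log2 values ± SE from an edgeR quasi-likelihood fit with Benjamini-Hochberg adjustment over all genes, 3 libraries a group. Pdcd1 averaged 5.44 ± 4.31 CPM in aged and 1.10 ± 0.153 CPM in young lungs (SD), a difference of 2.29 ± 0.51 (edgeR adjusted p 0.0110). Lag3 differed by 1.87 ± 0.37 (edgeR adjusted p 0.00616), Pdcd1lg2 by 1.32 ± 0.34 (0.0197), Ctla4 by 1.26 ± 0.22 (0.00299) and Btla by 1.02 ± 0.20 (0.00565). Tigit differed by 1.28 ± 0.46 without passing (edgeR adjusted p 0.0759), as did Havcr2 by 0.63 ± 0.33 (0.229), Cd274 by 0.55 ± 0.33 (0.286) and Cd160 by 0.18 ± 0.34 (0.768). The 95% intervals of these 4, not adjusted for the number of genes, ran from 0.30 to 2.27 for Tigit and -0.09 to 1.35 for Havcr2. They ran from -0.16 to 1.26 for Cd274 and -0.54 to 0.91 for Cd160. Without library 3 of the aged anti-PD-1 group, Pdcd1 differed by 1.41 (edgeR adjusted p 0.0473) and Lag3 by 1.23 (0.0158), and Pdcd1lg2 lost its call (1.08, adjusted p 0.0953). Pdcd1 also lost its call without library 3 of the young anti-PD-1 group (edgeR adjusted p 0.0516), and Pdcd1lg2 without library 1 (0.0644) or library 2 (0.0782) of that group. Tigit was called by DESeq2 (adjusted p 0.0244), in an edgeR fit of these 2 groups alone (0.0296) and without library 1 of the young anti-PD-1 group (0.0494), and Havcr2 in the fit of these 2 groups alone (0.0382). Lag3, Ctla4 and Btla were called in every alternative run, with adjusted p-values up to 0.0356 for Lag3.

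**Figure D2:**
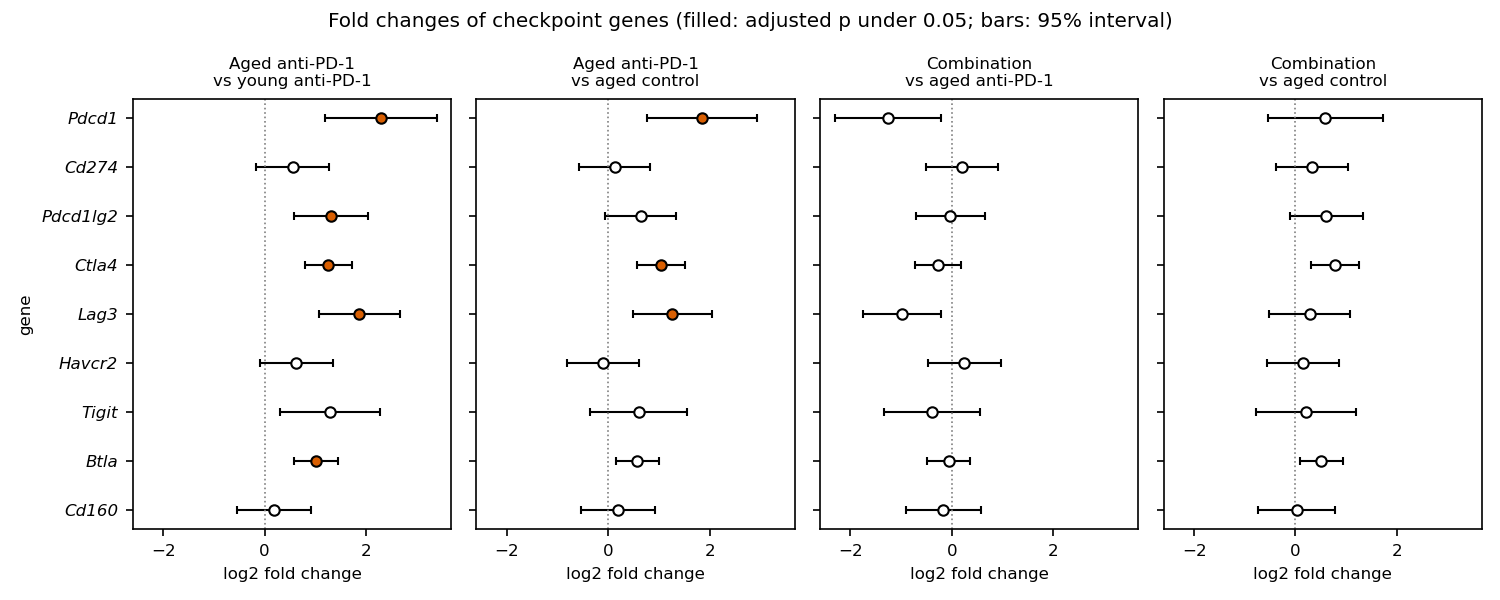
Log2 fold change of each checkpoint gene (horizontal axis, first-named group over second) in the 4 comparisons, 1 panel each, with bars for the 95% interval from the edgeR fit and filled points for an adjusted p under 0.05. Filled points number 5 in the comparison with young anti-PD-1, 3 in that of aged anti-PD-1 with aged control and 0 in both panels of the combination group, where the intervals of Pdcd1 and Lag3 against aged anti-PD-1 lie below 0.

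Aged anti-PD-1 lungs were next set against aged control lungs, which asks what the antibody changed at 22 months. Pdcd1, Lag3 and Ctla4 rose, by 3.61-fold, 2.40-fold and 2.07-fold, and the other 6 genes, both PD-1 ligands among them, did not pass the test. These 3 of 9 stand beside 5.34% of all genes called higher and 5.58% lower. Groups did not overlap for 4 of 9, against 32.5% of all genes, and the median log2 fold change was 0.60, against -0.02. The 2 comparisons share the aged anti-PD-1 libraries, so their results are not independent. Ctla4 averaged 23.2 ± 8.24 CPM in aged anti-PD-1 lungs, against 11.2 ± 1.86 CPM in aged control lungs, a difference of 1.05 ± 0.22 (edgeR adjusted p 0.0129). Lag3 averaged 12.1 ± 7.65 CPM in aged anti-PD-1 lungs, against 5.04 ± 0.982 CPM in aged control lungs (1.27 ± 0.36, edgeR adjusted p 0.0409). Pdcd1 averaged 5.44 ± 4.31 CPM in aged anti-PD-1 lungs, against 1.51 ± 0.660 CPM in aged control lungs (1.85 ± 0.50, edgeR adjusted p 0.0345). Btla, whose groups did not overlap either, differed by 0.57 ± 0.20 (edgeR adjusted p 0.0765), Pdcd1lg2 by 0.64 ± 0.33 (0.213) and Tigit by 0.60 ± 0.44 (0.397). Cd160 differed by 0.19 ± 0.34 (edgeR adjusted p 0.756), Cd274 by 0.13 ± 0.32 (0.834) and Havcr2 by -0.10 ± 0.33 (0.874), and the 95% interval of Cd274 ran from -0.58 to 0.83.

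The calls of Pdcd1 and Lag3 against aged control were lost under several alternatives, and that of Ctla4 under none. Without library 3 of the aged anti-PD-1 group, Pdcd1 differed by 0.97 (edgeR adjusted p 0.154) and Lag3 by 0.63 (0.161), while Ctla4 was still called at 0.72. Pdcd1 also missed the call without library 1, 2 or 3 of the aged control group (edgeR adjusted p 0.0865, 0.0520 and 0.0929), at log2 differences of 1.73, 2.25 and 1.63. Lag3 missed it without library 1 of the aged anti-PD-1 group (edgeR adjusted p 0.0503) and without each aged control library (0.0585, 0.107 and 0.104), at log2 differences of 1.44 without the first of these and 1.42, 1.26 and 1.13 without the control libraries. Both missed it without the filter on low counts, with limma-voom and in a fit of the 2 groups alone, and Lag3 missed it with the replicate number as a block (1.21, edgeR adjusted p 0.0759). Ctla4 was called in every alternative, with log2 differences of 0.72 to 1.23 when a library was left out and adjusted p-values up to 0.0471. Btla was called without library 3 of the aged control group (0.86, edgeR adjusted p 0.0150) and by DESeq2 (0.0405).

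**Figure D3:**
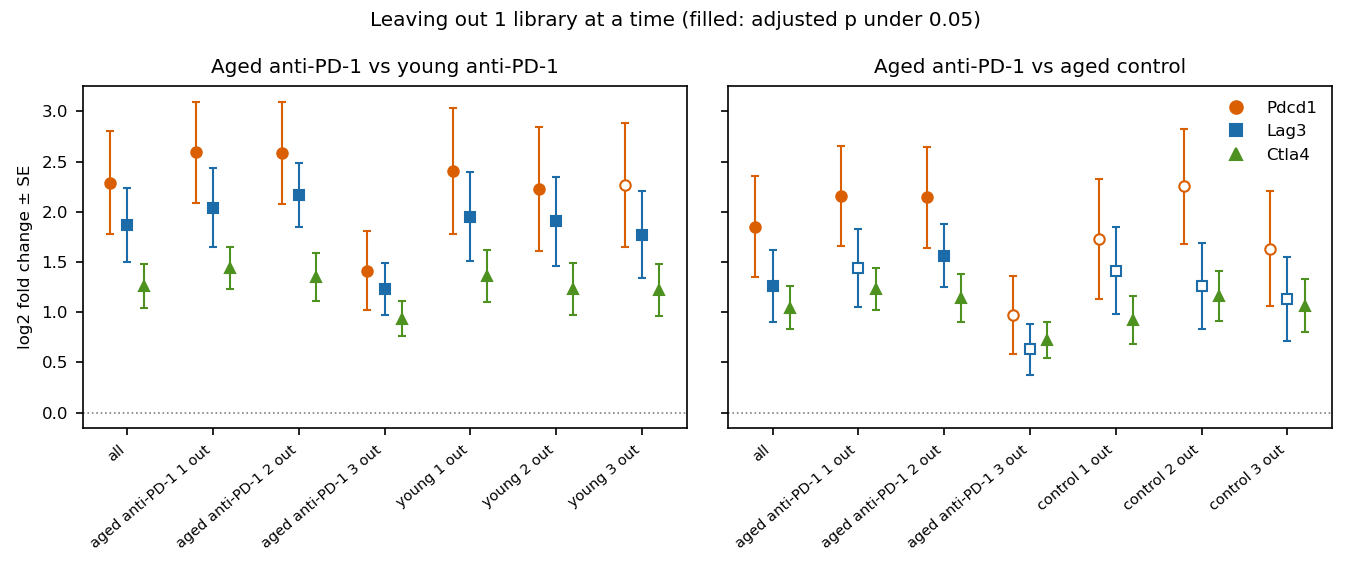
Log2 fold change ± SE (vertical axis) of Pdcd1, Lag3 and Ctla4 with all libraries and with each library left out (horizontal axis), for aged anti-PD-1 against young anti-PD-1 (left) and against aged control (right), with filled points for an edgeR adjusted p under 0.05. Pdcd1 drops to 1.41 and 0.97 without library 3 of the aged anti-PD-1 group, while Ctla4 stays filled throughout at 0.72 to 1.44.

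Combination lungs were then set against aged anti-PD-1 lungs, which asks what blocking the IL-21 receptor added. None of the 9 genes passed the test, where 4.67% of all genes were higher and 4.35% lower, and the groups did not overlap for 1 of 9, Pdcd1 (32.2% of all genes). The median log2 fold change of the 9 was -0.17, against -0.01 over all genes. Pdcd1 averaged 2.27 ± 0.898 CPM in combination and 5.44 ± 4.31 CPM in aged anti-PD-1 lungs (-1.26 ± 0.49, edgeR adjusted p 0.118), and its 95% interval ran from -2.31 to -0.21. Lag3 averaged 6.13 ± 1.64 CPM in combination and 12.1 ± 7.65 CPM in aged anti-PD-1 lungs (-0.99 ± 0.36, edgeR adjusted p 0.0995), with an interval from -1.76 to -0.21. Without library 3 of the aged anti-PD-1 group the Pdcd1 difference was -0.39 (edgeR adjusted p 0.586) and that of Lag3 -0.35 (0.440). Ctla4 differed by -0.27 ± 0.21 (edgeR adjusted p 0.455, interval -0.73 to 0.19) and Tigit by -0.39 ± 0.44 (0.616). Values for the other 5 genes lay between -0.17 for Cd160 and 0.25 for Havcr2, with adjusted p-values of 0.673 to 0.965. Scaling by library totals alone moved the median of all genes to -0.21 and the calls to 361 genes higher and 2677 lower, against 866 higher and 808 lower with TMM. Under those totals Pdcd1 (-1.45, edgeR adjusted p 0.0486) and Lag3 (-1.18, 0.0308) were called lower, which includes that shift. Lag3 was also called by DESeq2 (-0.98, adjusted p 0.0430) and without library 2 of the aged anti-PD-1 group (-1.29, edgeR adjusted p 0.0468).

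Combination lungs were last set against aged control lungs. The edgeR test called 0 of the 9 genes and 0% of all genes, although 1228 genes had an unadjusted p under 0.05 and DESeq2 called 76. Groups did not overlap for 2 of 9 genes, Ctla4 and Pdcd1lg2, against 9.71% of all genes. Ctla4 averaged 19.3 ± 2.91 CPM in combination and 11.2 ± 1.86 CPM in aged control lungs, a difference of 0.78 ± 0.22 with a 95% interval of 0.30 to 1.25 (edgeR unadjusted p 0.00341, adjusted p 0.448). Pdcd1lg2 differed by 0.61 ± 0.33 (edgeR adjusted p 0.816), Pdcd1 by 0.59 ± 0.53 (0.921) and Btla by 0.51 ± 0.20 (0.668). The other 5 genes had log2 differences of 0.02 to 0.33 with adjusted p-values of 0.935 to 0.996.

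The make-up of the lung moved with some of these results, and its part in them was not tested. The 12 T cell markers were Cd3e, Cd3d, Cd3g, Cd247, Cd2, Lck, Zap70, Trac, Trbc1, Trbc2, Cd6 and Lat. Cd2 was the highest of them, at 38.3 to 73.3 CPM. The summed level of the 12 ran from 240 to 308 CPM in combination libraries, 186 to 330 CPM in aged anti-PD-1 libraries, 202 to 280 CPM in aged control libraries and 160 to 182 CPM in young anti-PD-1 libraries. Of the 12 markers, 6 rose in aged against young anti-PD-1 lungs, where 8.09% of all genes were higher. None was called in the other 3 comparisons, and in combination against aged control 0% of all genes were called. Median log2 differences were 0.54 for aged against young, 0.19 for aged anti-PD-1 against aged control, -0.01 for combination against aged anti-PD-1 and 0.21 for combination against aged control. Library 3 of the aged anti-PD-1 group had the highest T cell sum of the 12. The 8 lung tissue markers, led by surfactant and airway genes, summed to 32900 to 36030 CPM in combination, 28900 to 33180 CPM in aged anti-PD-1, 32620 to 48060 CPM in aged control and 42950 to 55200 CPM in young anti-PD-1 libraries. Of these 8, 4 fell in aged against young anti-PD-1 lungs, whose sums did not overlap, and the median log2 difference was -0.60. Over all genes, 7.16% were lower there. Natural killer markers summed to 62.3 to 79.9 CPM in combination, 75.1 to 97.0 CPM in aged anti-PD-1, 39.0 to 79.4 CPM in aged control and 84.3 to 182 CPM in young anti-PD-1 libraries, and 1 of 8 rose and 1 fell in aged against young lungs.

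As a percentage of the T cell sum in the same library, Pdcd1 came to 0.511, 0.915 and 1.15% in combination, 1.58, 1.21 and 3.16% in aged anti-PD-1 libraries, 0.609, 0.806 and 0.503% in aged control and 0.704, 0.626 and 0.625% in young anti-PD-1 libraries. Every aged anti-PD-1 library was again above the other 9. Ctla4 came to 7.08, 7.34 and 7.52% in combination, 9.12, 8.19 and 9.87% in aged anti-PD-1 libraries, 4.52, 4.61 and 5.72% in aged control and 6.06, 5.82 and 5.29% in young anti-PD-1 libraries. On this scale the combination libraries lay below all aged anti-PD-1 libraries and above all aged control and young ones. Lag3 came to 1.95, 2.58 and 2.39% in combination, 4.87, 2.64 and 6.32% in aged anti-PD-1 libraries, 2.95, 1.79 and 2.01% in aged control and 2.04, 2.19 and 1.67% in young anti-PD-1 libraries. Library 2 of the aged anti-PD-1 group was within the range of the aged control libraries here. These percentages are given as a description and were not tested. The marker sum is not a count of T cells, so they are not levels per T cell.

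**Figure D4:**
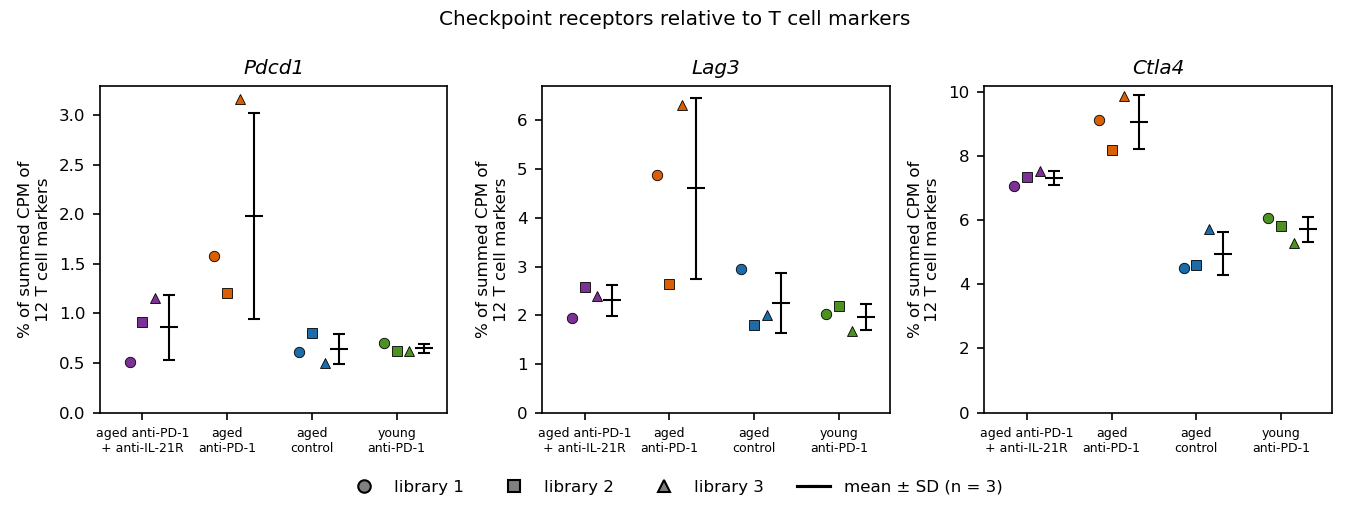
Level of Pdcd1, Lag3 and Ctla4 as a percentage of the summed CPM of 12 T cell markers in the same library (vertical axis, from 0), by group, with a marker shape for each library and bars for the mean ± SD (n = 3). All aged anti-PD-1 points for Ctla4 (8.19 to 9.87%) lie above all combination points (7.08 to 7.52%), which lie above all aged control points (4.52 to 5.72%).

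Members known from other cell types were set against the markers of those cells, a choice of pairs made after the levels were seen. These percentages are a description, and the part of these cells in the results was not tested. For the counts of called markers below, 8.09% of all genes were higher in aged than in young anti-PD-1 lungs. The share higher in aged anti-PD-1 than in aged control lungs was 5.34% of all genes. Btla came to 8.02 ± 0.754% of the summed level of 8 B cell markers in combination, 10.2 ± 1.26% in aged anti-PD-1, 8.99 ± 1.70% in aged control and 9.69 ± 1.88% in young anti-PD-1 lungs. The aged anti-PD-1 and young percentages of Btla overlapped, where their CPM values did not. Of the 8 B cell markers, 6 rose in that comparison, and whether this bears on the Btla call was not tested. B cell sums ran from 394 to 647 CPM in combination, 414 to 446 CPM in aged anti-PD-1, 212 to 397 CPM in aged control and 204 to 250 CPM in young anti-PD-1 libraries. Ctla4 came to 75.7 ± 7.15% of the sum of 4 regulatory T cell markers (Foxp3, Il2ra, Ikzf2 and Tnfrsf18) in combination, 81.8 ± 9.87% in aged anti-PD-1, 47.4 ± 9.02% in aged control and 50.4 ± 6.25% in young anti-PD-1 lungs. Those marker sums ran from 24.3 to 27.1 CPM in combination, 21.8 to 35.01 CPM in aged anti-PD-1, 23.2 to 24.5 CPM in aged control and 19.2 to 19.3 CPM in young anti-PD-1 libraries, and 1 of the 4, Tnfrsf18, was called, higher in aged than in young anti-PD-1 lungs. Pdcd1lg2 came to 1.76 ± 0.152% of the sum of 8 dendritic cell markers in combination, 1.54 ± 0.257% in aged anti-PD-1, 1.36 ± 0.403% in aged control and 0.883 ± 0.329% in young anti-PD-1 lungs. Its percentages in aged (1.246 to 1.715%) and young anti-PD-1 lungs (0.639 to 1.256%) overlapped only narrowly, where its CPM values did not overlap. The mean remained higher in aged anti-PD-1 lungs. Of the 8 dendritic cell markers, 3 rose in that comparison, and their sums did not overlap, at 106 to 148 CPM in aged and 81.9 to 100.1 CPM in young anti-PD-1 libraries. Cd274 came to 14.2 ± 2.47% of the sum of 8 macrophage and monocyte markers in combination, 12.6 ± 3.08% in aged anti-PD-1, 10.6 ± 2.37% in aged control and 11.3 ± 1.08% in young anti-PD-1 lungs, with overlapping ranges. Pdcd1 as a percentage of the sum of 6 follicular helper T cell markers averaged 2.84 ± 1.03% in combination, 5.64 ± 4.05% in aged anti-PD-1, 2.51 ± 1.45% in aged control and 2.09 ± 0.0803% in young anti-PD-1 lungs. Aged anti-PD-1 percentages (3.30 to 10.3%) overlapped those of combination (1.65 to 3.45%) and aged control lungs (1.36 to 4.13%), unlike the CPM values. Young percentages (2.00 to 2.14%) lay below all aged anti-PD-1 ones. Of the 5 follicular helper T cell markers tested, 4 rose in aged against young anti-PD-1 lungs and 2 in aged anti-PD-1 lungs against aged control lungs. The 6 listed were Cxcr5, Bcl6, Il21, Sh2d1a, Tox2 and Icos, of which Il21 was not tested and had no counts in 2 libraries. Bcl6 (22.1 to 43.2 CPM), Cxcr5 (7.17 to 25.7 CPM) and Tox2 (7.84 to 22.0 CPM) carried most of the sum. The sum is not a count of follicular helper T cells.

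Ligands of costimulatory and checkpoint receptors, some of them of receptors outside the 9 genes, moved in both directions with age. Of 18 listed genes, 5 were higher and 4 lower in aged than in young anti-PD-1 lungs, 1 was higher in aged anti-PD-1 than in aged control lungs, and 1 was lower in combination than in aged anti-PD-1 lungs. Their median log2 differences in that order were 0.19, -0.08 and 0.09. Over all genes, 8.09% were higher and 7.16% lower in aged than in young anti-PD-1 lungs. The share higher in aged anti-PD-1 than in aged control lungs was 5.34%. That lower in combination than in aged anti-PD-1 lungs was 4.35%. In each of the comparisons with 1 call among the 18 genes, that call was thus near the share of all genes. Vsir, which encodes the checkpoint protein VISTA, rose to 108 ± 2.82 CPM in aged anti-PD-1 lungs, against 72.5 ± 3.97 CPM in young ones (0.58 ± 0.11, edgeR adjusted p 0.00422). Its values in aged control lungs (104, 139 and 121 CPM) overlapped those in aged anti-PD-1 lungs. Nectin2, a ligand of the TIGIT and CD226 pair, fell to 34.8 ± 8.81 CPM in aged anti-PD-1 lungs, against 69.9 ± 7.74 CPM in young ones (-1.01 ± 0.18, edgeR adjusted p 0.00406). Aged control values of Nectin2 (55.6, 37.0 and 38.8 CPM) also overlapped those in aged anti-PD-1 lungs. Cd200, the ligand of the inhibitory receptor CD200R, had 159 ± 24.5 CPM in aged anti-PD-1 lungs, against 104 ± 11.4 CPM in aged control lungs (0.61 ± 0.11, edgeR adjusted p 0.00778). It was lower in combination lungs, at 105 ± 0.860 CPM (-0.60 ± 0.12 against aged anti-PD-1, edgeR adjusted p 0.00987). Both Cd200 comparisons share the aged anti-PD-1 libraries.

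Of 10 costimulatory genes, 8 receptors and the ligand genes Cd40lg and Tnfsf14, 3 were called, all higher, in aged against young anti-PD-1 lungs (median 0.50). In aged anti-PD-1 lungs against aged control lungs 1 was lower. In combination against aged anti-PD-1 lungs 1 was higher. The matching shares of all genes were 8.09%, 5.58% and 4.67% in that order. Cd226, the activating partner of TIGIT, rose to 15.4 ± 4.07 CPM in aged anti-PD-1 lungs, against 5.72 ± 0.793 CPM in young ones (1.43 ± 0.24, edgeR adjusted p 0.00262). Icos, a receptor of the CD28 family, had 9.73 ± 4.11 CPM in aged anti-PD-1 and 4.36 ± 0.480 CPM in young lungs (1.15 ± 0.27, edgeR adjusted p 0.0132), a call lost without library 3 of the aged anti-PD-1 group (0.78, adjusted p 0.0718) or library 2 of the young anti-PD-1 group (0.0602). Tnfsf14, which encodes LIGHT, an HVEM ligand that shares that receptor with BTLA and CD160, had 3.91, 6.59 and 5.04 CPM in aged anti-PD-1 lungs, against 9.14, 15.1 and 11.97 CPM in aged control lungs (-1.22 ± 0.21, edgeR adjusted p 0.00614). In combination lungs it stood at 10.2, 9.79 and 10.02 CPM, above all aged anti-PD-1 values (0.96 ± 0.21, edgeR adjusted p 0.0171). Without library 2 of the combination group or library 1 of the aged anti-PD-1 group that call was lost (edgeR adjusted p 0.0690 and 0.0676). Against young anti-PD-1 lungs, at 5.25, 4.65 and 4.07 CPM, the aged anti-PD-1 values of Tnfsf14 overlapped.

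Of 12 other inhibitory receptors, 11 were tested, and 5 were higher in aged than in young anti-PD-1 lungs, 1 in aged anti-PD-1 lungs than in aged control lungs, and none was called in the combination comparisons. Medians were 0.77 for aged against young anti-PD-1, 0.44 for aged anti-PD-1 against aged control and -0.07 for combination against aged anti-PD-1. Of all genes, 8.09% were higher in aged than in young anti-PD-1 lungs and 5.34% in aged anti-PD-1 than in aged control lungs. Cd200r1, the receptor of Cd200, had 9.42 ± 3.81 CPM in aged anti-PD-1 and 4.02 ± 1.06 CPM in young lungs (1.22 ± 0.30, edgeR adjusted p 0.0152), a call lost without library 3 of the aged anti-PD-1 group (0.0793), or library 2 (0.0544) or 3 (0.0716) of the young one. Among 11 signalling genes below the receptors, 4 rose in aged against young anti-PD-1 lungs and none was called in the other comparisons. Ptpn6, which encodes the phosphatase SHP-1, had 137 ± 19.5 CPM in aged anti-PD-1 and 80.7 ± 6.30 CPM in young lungs (0.76 ± 0.14, edgeR adjusted p 0.00318). Its values in aged control lungs (115, 154 and 161 CPM) overlapped those in aged anti-PD-1 lungs.

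Of 18 transcription factor genes of activated and exhausted T cells, 5 rose in aged against young anti-PD-1 lungs (median 0.44). Over all genes, 8.09% were higher there. Against aged control lungs 1 was higher and 1 lower in aged anti-PD-1 lungs, near the shares of all genes (5.34% and 5.58%). In combination against aged anti-PD-1 lungs 1 was higher, also near the share of all genes (4.67%). Tox, a regulator of T cell exhaustion, had 6.36 ± 2.57 CPM in aged anti-PD-1 and 2.30 ± 0.555 CPM in young lungs (1.46 ± 0.35, edgeR adjusted p 0.0149), a call lost without library 3 of the aged anti-PD-1 group (1.10, adjusted p 0.0743), or library 2 (0.0616) or 3 (0.0701) of the young one. Tox values in aged control lungs (2.91, 7.28 and 4.22 CPM) overlapped those in aged anti-PD-1 lungs (4.16, 5.73 and 9.18 CPM). Against aged control, Tox2, a relative of Tox, rose to 17.8 ± 3.83 CPM in aged anti-PD-1 lungs, against 9.03 ± 1.18 CPM (0.98 ± 0.18, edgeR adjusted p 0.00741). Nr4a3, an early gene of receptor stimulation, had 35.3, 42.6 and 46.0 CPM in combination lungs, 15.9, 24.3 and 23.9 CPM in aged anti-PD-1 lungs and 30.6, 34.0 and 39.1 CPM in aged control lungs. It was lower in aged anti-PD-1 than in aged control lungs (-0.70 ± 0.17, edgeR adjusted p 0.0235) and higher in combination than in aged anti-PD-1 lungs (0.95 ± 0.17, edgeR adjusted p 0.00826). The first of these calls was lost without library 1 of the aged anti-PD-1 group (-0.52, edgeR adjusted p 0.0709) or library 2 or 3 of the aged control group (0.0620 and 0.0647), and in a fit of the 2 groups alone (0.0620).

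Of 12 genes of interferon gamma signalling and its targets, 2 rose in aged against young anti-PD-1 lungs. In aged anti-PD-1 lungs against aged control lungs 3 rose, and the medians were 0.18 and -0.18 in that order. The shares of all genes called higher were 8.09% and 5.34%. Cxcl9, an interferon gamma-induced chemokine, had 5.96, 11.5 and 15.6 CPM in combination lungs, 20.1, 14.0 and 121 CPM in aged anti-PD-1 lungs, 4.42, 5.76 and 3.10 CPM in aged control lungs and 3.74, 1.601 and 2.26 CPM in young anti-PD-1 lungs. All aged anti-PD-1 values were above all aged control and young ones, and library 3 of the aged anti-PD-1 group stood far above the rest, as for Pdcd1. The Cxcl9 difference between aged and young anti-PD-1 lungs was 4.33 ± 0.87 (edgeR adjusted p 0.0107), or 2.74 (0.00360) without that library, and the call was lost without library 2 or 3 of the young anti-PD-1 group (0.0543 and 0.0560) or in a fit of the 2 groups alone (0.0757). Aged anti-PD-1 exceeded aged control lungs by 3.54 ± 0.82 (edgeR adjusted p 0.0273), or 1.95 (0.0263) without that library, and each of the 3 aged control libraries left out ended the call (0.0889, 0.0972 and 0.0779). It was also lost with the replicate number as a block (edgeR adjusted p 0.0578), without a filter on low counts (0.0591) and in a fit of the 2 groups alone (0.0563).

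Around the IL-21 receptor, 5 of 6 listed genes were tested, and 3 rose in aged against young anti-PD-1 lungs (median 0.61) and 1 in aged anti-PD-1 lungs against aged control lungs (0.41). The shares of all genes called higher were 8.09% and 5.34%. In combination against aged anti-PD-1 lungs 1 of the 5 was lower, where 4.35% of all genes were. Jak3, the kinase of the common gamma chain through which IL-21 signals, had 36.5 ± 2.20 CPM in combination and 50.4 ± 4.72 CPM in aged anti-PD-1 lungs (-0.47 ± 0.13, edgeR adjusted p 0.0449), and that call was lost with any of the 6 libraries left out (adjusted p up to 0.125) and with the replicate number as a block (0.0659). In combination against aged control lungs, none of the genes in these 7 lists was called, as 0% of all genes were.

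Genes whose levels ran most like each member were ranked by Pearson's r of log2 CPM over the 12 libraries, which share the 4 groups and library 3 of the aged anti-PD-1 group, so r describes these libraries only. Pdcd1 ran closest to Cxcl9 (r = 0.968), Fscn1 (0.951) and Cd200r1 (0.931). Lag3 ran closest to C1qc (0.956), C1qa (0.951) and Cxcl9 (0.947), and Ctla4 to Apol7e (0.963), the mitochondrial tRNA gene mt-Tq (0.941) and Plekha2 (0.937). Btla ran closest to Bank1 (0.953), St6gal1 (0.945) and Cd22 (0.942), genes known from B cells. Cd274 ran closest to Zfp992 (0.951), Capza1 (0.934) and Lcp2 (0.931), and Havcr2 to Usp38 (0.969), Actr2 (0.969) and Fyn (0.961). The highest r of Cd160 was 0.877, with St3gal6.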

How the data were processed

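Lung RNA (Trizol, then RNeasy purification) was poly(A) selected for strand-specific NEBNext Ultra II libraries, per the labels' protocols. The authors deposited raw read counts per gene with no normalization, 1 column per library. Reads went through bcl2fastq 1.8.4, Trimmomatic, HISAT2 and featureCounts 1.6.3 on mm10, per the submitters' processing notes. Options, annotation release and strand setting are not given in the sources used here.

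Genes were kept by edgeR's filterByExpr (minimum count 10, minimum total 15), counts were TMM scaled, and 1 quasi-likelihood model with 4 group means was fitted to all 12 libraries (edgeR 4.0.16, limma 3.58.1, R 4.3.3) and tested on simulated data. The tests were two-sided, and SE was taken as |log2 fold change| over the root of F. The fit had 8 residual degrees of freedom and a common biological coefficient of variation of 0.156. Alternatives were DESeq2 1.42.0, limma-voom, other scalings and filters, a replicate block, fits of 2 groups and each library left out. Libraries with the same number did not deviate together (median r -0.012, range -0.169 to 0.171 over 18 pairs), so numbers were not used as pairs.

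Exon lengths came from GENCODE M21, in which 45125 of 49585 genes had the deposited coordinates, and promoters from RefSeq GRCm38.p6. Pdcd1lg2, Tigit and Btla were among the genes whose coordinates differed. Cd244a and Pvrig were matched under the symbols Cd244 and Pvrig-ps, and Bat3 as Bag6. The 9 genes and all lists were chosen with earlier results of these data known. The naming rule took all members, up to 4 called or 2 uncalled genes per list and comparison, from which a selection is printed, and the 5 genes of highest r per member with a mean log2 CPM of at least 0. Plots used matplotlib 3.10.9 under Python 3.11.15.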

Additional observations from a re-analysis of the deposited data

How the results depend on the processing

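Alternatives changed the calls of checkpoint genes mainly in aged anti-PD-1 lungs against aged control lungs, where 3 genes were called. That count was 1 without a filter, with limma-voom and in a fit of the 2 groups alone, 2 with the replicate block, 4 with DESeq2 and 1 to 3 with a library left out. In combination against aged anti-PD-1 lungs it was 2 with library totals alone, 1 with DESeq2 and 0 to 1 with a library left out, against 0. In aged against young anti-PD-1 lungs 5 checkpoint genes were called. DESeq2 called 6, a fit of the 2 groups alone 7, and fits with a library left out 4 to 5. Calls over all genes in that comparison ran from 1160 to 2237 with a library left out, against 2830 (2493 with the replicate block). They numbered 3461 with DESeq2 and 3742 in a fit of the 2 groups alone. Aged anti-PD-1 against aged control gave 607 to 1995 with a library left out, 881 with 2 groups and 2999 with DESeq2, against 2025 (1702 with the replicate block). Library totals alone gave 1400 higher and 559 lower there, against 990 and 1035. Combination against aged anti-PD-1 gave 260 to 1439 with a library left out, 3038 with library totals alone and 2595 with DESeq2, against 1674 (1455 with the replicate block). Combination against aged control gave 11 without a filter, 76 with DESeq2 and 0 to 13 with a library left out, against 0. The replicate block changed no call of a checkpoint gene other than that of Lag3 against aged control. The causes were not tested.

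Signs turned in uncalled values only. With a library left out, log2 differences in aged against young anti-PD-1 lungs ran from -0.086 to 0.42 for Cd160. In aged anti-PD-1 lungs against aged control lungs they ran from -0.080 to 0.42 for Cd160, -0.23 to 0.33 for Cd274 and -0.44 to 0.12 for Havcr2. In combination against aged anti-PD-1 lungs they ran from -0.0044 to 0.56 for Cd274, -0.18 to 0.21 for Pdcd1lg2, -0.45 to 0.053 for Ctla4, -0.032 to 0.52 for Havcr2, -0.17 to 0.060 for Btla and -0.43 to 0.10 for Cd160. Pdcd1lg2 also turned there with limma-voom (0.010) and the replicate block (0.0041). In combination against aged control lungs they ran from -0.19 to 0.37 for Havcr2, -0.24 to 0.26 for Cd160 and -0.18 to 0.74 for Tigit, and Cd160 turned with library totals alone (-0.068) and limma-voom (-0.012). Counts per group were lowest for Pdcd1, Pdcd1lg2, Tigit and Cd160, at 48 to 338, and how far depth limits their values was not tested.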
